A study of Mus musculus with 36 samples.

Results

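Macrophages from the aorta were compared with macrophages from the peritoneal cavity of the same kind of mouse, before any high cholesterol diet. The comparison rests on 8 of the 36 RNA-seq libraries of a series on Apoe-deficient mice: 4 libraries of aortic macrophages and 4 of peritoneal macrophages, chosen by their labelled tissue, cell type and stage and by no measured value. All 8 carry the genotype Apoe ko and the chow diet label of the baseline stage, so neither group is a wild-type control. Loss of apolipoprotein E slows the removal of lipoprotein remnants from blood and makes mice prone to atheroma. The same pair of populations was also taken after 1 month (early stage) and after 6 months (advanced stage) of high cholesterol diet, 4 libraries each, and those 16 libraries serve here to ask which differences recur. The series asks how systemic and lesional myeloid cells change their gene expression while atheroma starts and grows. Aortic macrophages were sorted by flow cytometry from whole aorta digested with collagenase. Peritoneal macrophages were sorted from lavage fluid without such a digestion, so tissue and digestion cannot be told apart. The labels give neither the sorting markers, the age and sex of the mice, nor whether replicate libraries are separate animals. All p-values therefore measure the spread between these libraries, which may in part be technical.

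Tissue macrophages share a core of lineage genes and add a programme set by the place they live in. In the peritoneal cavity the large resident macrophage depends on the transcription factor GATA6, which retinoic acid induces, and it expresses adhesion, clotting and lubricant genes that suit a cell floating in fluid. In the healthy artery a resident population marked by the hyaluronan receptor LYVE1 lies in the adventitia. A further arterial population carries more MHC class II and CCR2, the receptor through which blood monocytes are recruited. Levels below are CPM (reads per gene scaled to the library size used in the statistical fit) and are not divided by gene length, so they compare libraries and not genes. Differences are log2 fold changes of aorta over peritoneum ± standard error, with the Benjamini-Hochberg adjusted p of edgeR's quasi-likelihood test. A gene is called when that adjusted p is under 0.05, two-sided.

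The aortic libraries were less complete and less alike than the peritoneal ones. They held 9743795, 8335585, 5278901 and 9331198 counted reads in replicates 1 to 4, against 11822700, 9252521, 10210720 and 14312494 in the peritoneum (exact permutation test, two-sided p = 0.0857, where 4 against 4 cannot go below 0.0286). With every library thinned to the depth of the shallowest, aortic libraries 1 to 4 showed 10041, 9991, 7790 and 7367 genes and the peritoneal libraries 12973 to 13403, with no overlap (exact permutation p = 0.0286). Aortic libraries 3 and 4 stood apart. Of 4713 genes at 20 CPM or more in every baseline library of peritoneal macrophages and of the series' monocytes, aortic libraries 1 to 4 had no count for 0.446, 0.679, 7.43 and 10.9%. The peritoneal libraries are at 0% by that choice of genes, so these shares compare only the aortic libraries with one another. Spearman's rho across 16065 genes, given as a description, ran from 0.634 to 0.825 within the aorta and from 0.975 to 0.986 within the peritoneum and from 0.660 to 0.839 between the tissues, and genes are not independent points. The ribosomal precursor Rn45s took 4.74 to 6.77% of aortic and 9.40 to 17.5% of peritoneal reads. In bulk samples, fewer cells of a type and less RNA per cell cannot be told apart.

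Of 10850 genes tested at baseline, 1244 were called (11.5%), 416 of them higher in the aorta (3.83%) and 828 lower (7.63%). Counts of calls per gene list at baseline, given below, are to be read beside these shares. All 4 aortic libraries lay above all 4 peritoneal libraries for 715 genes (6.59%), and below them for 2235 (20.6%). The median log2 fold change over all tested genes was -0.10. Among the lower calls, 475 genes had no count in any aortic library, and each tested gene of that description was called. For 426 of these 475 the peritoneal mean was under 20 CPM. Of the calls with a mean of 20 CPM or more on their higher side, 413 were higher and 274 lower in the aorta. Without aortic libraries 3 and 4 together, 3789 genes were called, 1538 higher and 2251 lower, and 1230 of the 1244 calls remained.

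**Figure D1:**
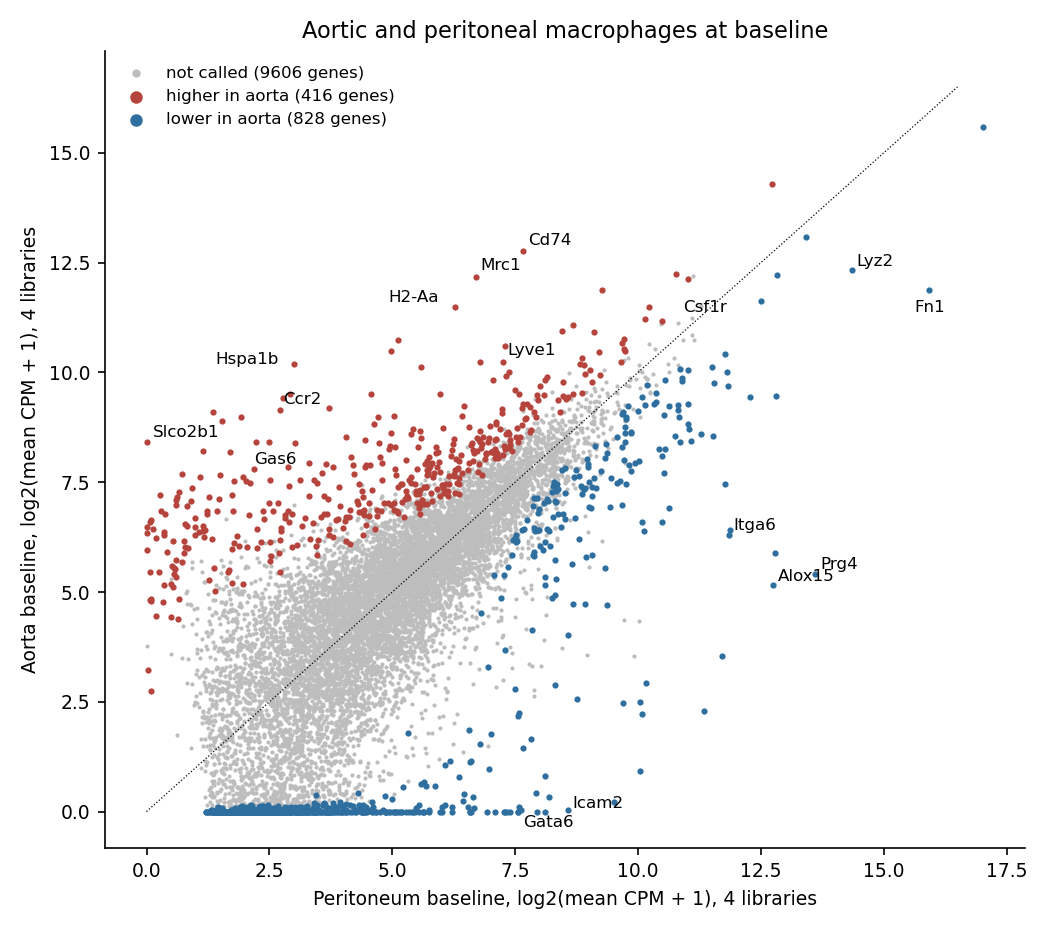
Each point is 1 of the 10850 genes tested at baseline, at log2(mean CPM + 1) over the 4 peritoneal libraries (horizontal) and over the 4 aortic libraries (vertical), with the dotted line at equal levels. The 416 genes called higher in the aorta lie above the line, and the 828 called lower lie below it, many of them along the bottom edge at 0 CPM in the aorta.

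Both populations carried the general macrophage genes. Csf1r, the receptor for the growth factor that keeps macrophages alive, stood at 2588, 2539, 2095 and 1763 CPM in aortic libraries 1 to 4 and at 1948, 1975, 1760.3 and 1544 CPM in peritoneal libraries 1 to 4. Those ranges overlapped (0.31 ± 0.16, adjusted p = 0.328), and Csf1r was called higher without aortic libraries 3 and 4 (0.49, adjusted p = 0.0285). Mertk, a receptor for dying cells, gave 289, 124, 187 and 223 CPM against 234, 217, 234 and 183 CPM (-0.08 ± 0.27, adjusted p = 0.958), and Cd68, a lysosomal membrane protein, 395, 226, 283 and 510.2 CPM against 385, 363, 324 and 278 CPM (0.07 ± 0.27, adjusted p = 0.964). Of 18 core genes tested, 3 were higher and 5 lower in the aorta, and the list's median log2 fold change was -0.01. The markers most used to sort macrophages differed. Adgre1, which encodes F4/80, was at 663, 694, 729.9 and 404 CPM in the aorta and at 2173, 2151, 2166 and 1786 CPM in the peritoneum (-1.73 ± 0.20, adjusted p = 0.0012). Itgam, which encodes CD11b, was at 1015, 623, 689 and 442 against 5168, 5058, 5226 and 4472 CPM (-2.85 ± 0.24, adjusted p = 0.000234). Lyz2, the macrophage lysozyme, was at 5312, 5025, 5161 and 5048 CPM in the aorta and 21459, 21292, 20739 and 20086 CPM in the peritoneum (-2.02 ± 0.08, adjusted p = 4.30e-06), with no overlap for any of the 3. Reads of Lyz2 and its near-identical neighbour Lyz1 may not be separable. Ptprc, the pan-leukocyte antigen CD45, was higher in aortic libraries 1 to 3 only, at 1256, 1269, 1191 and 511 against 523, 496, 534 and 523 CPM (1.03 ± 0.27, adjusted p = 0.0399). The call of Ptprc was lost when any 1 of aortic libraries 1, 2 or 3 and peritoneal libraries 1, 2, 3 or 4 was left out (adjusted p 0.0891 to 0.118). Aif1, an actin-binding protein also called IBA1, was higher in every aortic library, at 54.2, 79, 192 and 134 against 7.98, 4.99, 10.5 and 1.99 CPM (4.17 ± 0.72, adjusted p = 0.00606). Whether the sort itself used CD11b, F4/80 or CD45 is not stated, and the part of the gate in these levels was not tested.

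The GATA6 programme of the large peritoneal macrophage was the clearest peritoneal group. Of its 24 genes tested, 21 were called lower in the aorta and none higher, all 24 had every aortic library below every peritoneal library, and the median log2 fold change was -7.74 (7.63% of all tested genes were called lower, and 20.6% lay below without overlap). Gata6 itself (chr18:11052510-11085636, GRCm38.p6) had no read in any aortic library and stood at 182, 173, 179 and 215 CPM in peritoneal libraries 1 to 4, at least 2250.3-fold higher there when 3 counts over the aortic group are taken as the floor. That difference passed the test with adjusted p = 0.000156. The list was drawn up with earlier results of these libraries known, so its direction is not independent evidence.

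Icam2, an adhesion molecule of the large peritoneal macrophage, had 1 library with any aortic count (0, 0.106, 0 and 0 CPM) against 366, 358, 377 and 415 CPM (-13.18 ± 0.63, adjusted p = 1.81e-05). Prg4, which encodes the lubricant lubricin, stood at 31.3, 61.8, 67.9 and 6.37 CPM in the aorta and at 10276, 12359, 10000.5 and 17339 CPM in the peritoneum (-8.22 ± 0.78, adjusted p = 0.000446). Itga6, a laminin receptor subunit, was tight in both populations, at 98.3, 74.1, 61.1 and 78.3 against 3711, 3708, 3691 and 3579 CPM (-5.56 ± 0.18, adjusted p = 2.70e-06). No aortic library of any of these genes came near a peritoneal one.

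Alox15, the 12/15-lipoxygenase that oxidises membrane lipids, split the aortic libraries, with 53.2, 84.2, 0.679 and 0.319 CPM in replicates 1 to 4 against 7569, 7388, 6355 and 6144 CPM in the peritoneum (-7.63 ± 1.62, adjusted p = 0.0133). Aortic libraries 3 and 4 were at under 1 CPM and aortic libraries 1 and 2 at over 50 CPM. F5, coagulation factor V, split them the same way, at 20.5, 22.1, 0.17 and 0.106 against 2922, 3315, 2853 and 4393 CPM (-8.28 ± 1.52, adjusted p = 0.00717). Without aortic libraries 3 and 4 both genes remained called (log2 fold change and adjusted p of -6.66, adjusted p = 0.000198 for Alox15, and of -7.33, adjusted p = 0.000176 for F5). With limma-voom and 1 weight per group neither was called (-10.10, adjusted p = 0.0504 and -10.73, adjusted p = 0.147), and nor was Prg4 (-8.76, adjusted p = 0.297). Timd4, the phosphatidylserine receptor TIM4 of resident macrophages, had the smallest difference of the list, at 122, 132, 153 and 77.8 against 632, 668, 689 and 755 CPM (-2.50 ± 0.23, adjusted p = 0.000374). It was read in every aortic library, and below the peritoneum in each.

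Slpi, a secreted protease inhibitor, was at 0.457, 0.212, 0 and 0 CPM in the aorta and 513, 621, 562 and 1206 CPM in the peritoneum (-11.81 ± 0.84, adjusted p = 9.84e-05). It was not called with limma-voom and 1 weight per group (-12.11, adjusted p = 0.119).

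The 3 members of the list that were not called had nearly all their aortic reads in library 1. Rarb, a retinoic acid receptor, was at 6.95, 0, 0 and 0 CPM in the aorta and 44.3, 44.2, 48.8 and 60.9 CPM in the peritoneum (-4.81 ± 2.02, adjusted p = 0.22), and it was called without aortic library 1 (-11.87, adjusted p = 0.00284). Saa3, an acute phase protein, and Efnb2, an ephrin ligand, were the other two, and they are named after their values were seen. Of 12 retinoid genes tested, 3 were called lower and none higher in the aorta. Cyp26a1 and Cyp26b1, which break down retinoic acid, had no aortic read and lay at 9.81, 8.67, 6.09 and 24.6 and 10.5, 9.74, 9.39 and 9.2 CPM in the peritoneum (at least 155-fold and 115-fold higher, adjusted p = 0.0147 and 0.0107). Both belong to the 426 called genes with no aortic read and a peritoneal mean under 20 CPM, of which 125 at the early and 27 at the advanced stage again had no aortic read. Dhrs3, which reduces retinal, was lower by less, at 208, 180.1, 247 and 239 against 382, 384, 322 and 311 CPM (-0.68 ± 0.18, adjusted p = 0.0441), and the call of Dhrs3 was lost when any 1 of peritoneal libraries 1, 2, 3 or 4 was left out (adjusted p 0.0793 to 0.174). Rxra, the shared partner receptor, was at 109, 123, 225 and 189.7 against 171, 174, 164 and 128 CPM (0.02 ± 0.29, adjusted p = 0.991).

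**Figure D2:**
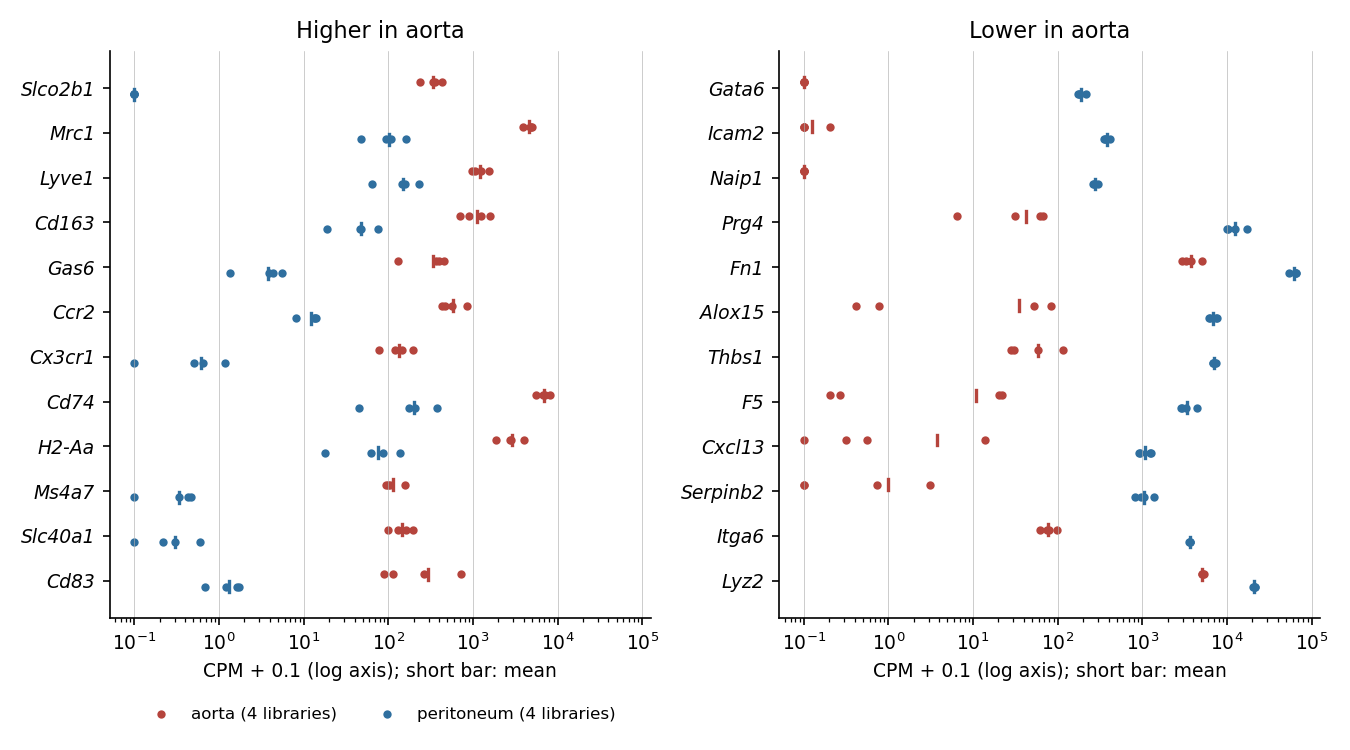
Each point is 1 library, at its CPM plus 0.1 on a log axis, for 12 genes higher in the aorta (left) and 12 lower (right), with a short bar at the mean of 4 libraries. For all 24 genes the aortic and peritoneal libraries do not overlap, and Alox15 and F5 show the aortic libraries in 2 pairs.

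The LYVE1 programme of resident arterial macrophages ran the other way. Of 18 genes tested, 13 were called higher in the aorta and 1 lower, with a median log2 fold change of 2.62 (3.83% of all tested genes were called higher). With limma-voom and 1 weight per group, 8 of these 18 were called, and 19 of the 24 genes of the GATA6 list. Lyve1, the hyaluronan receptor, stood at 987, 1059.7, 1562 and 1234 CPM in aortic libraries 1 to 4 and at 231, 147, 159 and 64.4 CPM in the peritoneum (3.01 ± 0.37, adjusted p = 0.00172). Lyve1 was not called with limma-voom and 1 weight per group (3.12, adjusted p = 0.0818). Mrc1, the mannose receptor CD206, was at 5057, 4845, 4767 and 3916 against 162, 107, 94.3 and 48.2 CPM (5.50 ± 0.37, adjusted p = 8.62e-05). Both genes were above the peritoneum in every aortic library, and the aortic values of Mrc1 differed among themselves by less than 1.5 times.

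Cd163, the receptor for haemoglobin bound to haptoglobin, was at 1245, 908, 1607 and 707 against 75.6, 45.7, 48.2 and 18.9 CPM (4.57 ± 0.47, adjusted p = 0.00065). Folr2, folate receptor beta, was at 448, 442, 601 and 325 against 37.8, 25.8, 19.5 and 11.5 CPM (4.26 ± 0.41, adjusted p = 0.000454). Stab1, the scavenger receptor stabilin-1, was at 2136, 1972, 1685 and 2028 against 473, 408, 387 and 126 CPM (2.49 ± 0.36, adjusted p = 0.00422). For all 3 the lowest peritoneal value was that of library 4. Stab1 was not called with limma-voom and 1 weight per group (2.69, adjusted p = 0.213).

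Secreted members and regulators differed too. Gas6, a bridge between dying cells and their receptors, was at 369, 456, 400.3 and 130.2 against 5.5, 4.28, 3.82 and 1.24 CPM (6.51 ± 0.63, adjusted p = 0.000454). F13a1, the clot-stabilising factor XIII A chain, was at 4312, 3157, 4115 and 3353 against 905, 670.1, 629.9 and 263 CPM (2.60 ± 0.34, adjusted p = 0.00231). F13a1 was not called with limma-voom and 1 weight per group (2.74, adjusted p = 0.144). Maf, the transcription factor c-MAF, was at 936, 1162, 1327 and 723 against 203, 191, 166 and 105 CPM (2.64 ± 0.27, adjusted p = 0.000688). Cbr2, a carbonyl reductase, and Clec10a, a galactose-type lectin, were also called (4.00 ± 0.37, adjusted p = 0.000384 and 3.36 ± 0.26, adjusted p = 0.000132). The list is not uniform. Pf4, a chemokine often listed with these cells, overlapped between the populations, at 331, 420.0, 771 and 215 against 778, 789, 686 and 559 CPM (-0.70 ± 0.35, adjusted p = 0.346). It was called lower without aortic library 3 (-1.14, adjusted p = 0.0229) and without aortic libraries 3 and 4 (-0.93, adjusted p = 0.0136).

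Peritoneal library 4 was the lowest of the 4 peritoneal libraries for 16 of the 18 LYVE1 genes, for 8 of 9 MHC class II genes and for all 7 B cell genes tested, against 3757 of all 10850 tested genes. It was the highest for 23 of 29 ribosomal protein genes. The source of that library's difference was not tested. The summed CPM of the LYVE1 list was 22506, 20872, 25064 and 18765 in aortic libraries 1 to 4 and 6449, 5495, 5114 and 3496 in the peritoneal ones.

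MHC class II genes, which present extracellular antigen to helper T cells, were higher in the aorta. Of 9 tested, 6 were called higher and none lower, with a median log2 fold change of 5.10 (3.83% of all tested genes were called higher). Cd74, the invariant chain that guides class II molecules, stood at 6830.3, 7068, 8182 and 5648 CPM in the aorta against 210.0, 178, 377 and 44.9 CPM in the peritoneum (5.10 ± 0.59, adjusted p = 0.00122). H2-Aa, an alpha chain, was at 2777, 2858, 4044 and 1854 against 85.6, 62.9, 139 and 17.6 CPM (5.24 ± 0.62, adjusted p = 0.00133). H2-Eb1, a beta chain, was at 1512, 1576, 1833 and 833 against 38, 27.9, 49.9 and 5.72 CPM (5.57 ± 0.65, adjusted p = 0.00133). Every aortic library was above every peritoneal library for these genes, and peritoneal library 4 was lowest in each. Ciita, the coactivator that switches class II genes on, was at 167, 76.8, 116 and 389.6 against 6.33, 4.51, 7.12 and 0.995 CPM (5.30 ± 0.80, adjusted p = 0.00503), and H2-Ab1 and H2-DMa were called as well (5.68 ± 0.56, adjusted p = 0.000501 and 2.76 ± 0.43, adjusted p = 0.00549).

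Class II promoters are classically recognised through a set of boxes that ends in the Y box, bound by the factor NF-Y. The promoter windows of 2 called genes that hold its letters are shown, as RefSeq (GRCm38.p6) gives them from 250 bases before to 50 after the annotated start, 5′ to 3′ along the gene, with the Y box letters CTGATTGG in capitals. The H2-Aa window is chr17:34287774-34288073, minus strand, and that of H2-Eb1 is chr17:34305617-34305916, plus strand.
H2-Aa: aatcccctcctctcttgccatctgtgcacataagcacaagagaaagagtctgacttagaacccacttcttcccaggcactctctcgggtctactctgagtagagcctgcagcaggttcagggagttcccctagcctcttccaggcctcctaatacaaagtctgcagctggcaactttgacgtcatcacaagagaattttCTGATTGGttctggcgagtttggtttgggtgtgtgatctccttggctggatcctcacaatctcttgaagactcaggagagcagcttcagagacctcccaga
H2-Eb1: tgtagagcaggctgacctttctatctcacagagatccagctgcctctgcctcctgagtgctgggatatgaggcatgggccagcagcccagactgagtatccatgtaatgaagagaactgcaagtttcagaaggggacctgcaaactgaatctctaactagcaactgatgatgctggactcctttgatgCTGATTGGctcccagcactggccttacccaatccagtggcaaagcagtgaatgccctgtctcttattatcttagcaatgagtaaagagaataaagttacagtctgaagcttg
The match begins 51 bases before the start of H2-Aa and 62 before that of H2-Eb1. Both strands were searched. Of the 6 tested members with a RefSeq window, 2 held these letters, and 4.7% of all 27025 genes with a window did (4.10% of all 32851 windows of this length). A match describes the letters and is neither a site in use nor a cause.

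Ccr2, the monocyte recruitment receptor, was at 567, 436, 464 and 848 CPM in aortic libraries 1 to 4 and at 13.3, 13.5, 8.05 and 13.9 CPM in peritoneal libraries 1 to 4 (5.57 ± 0.33, adjusted p = 4.73e-05). Cx3cr1, the fractalkine receptor of patrolling and tissue-settled cells, was at 197, 119, 78.8 and 146 against 0.55, 1.07, 0.413 and 0 CPM (8.05 ± 1.07, adjusted p = 0.00253). Itgax, which encodes CD11c, was at 198, 105, 86.9 and 147 against 2.02, 0.95, 0.516 and 0 CPM (7.25 ± 1.16, adjusted p = 0.00555). All 3 separated the populations completely. Of 11 tested genes of a list for small peritoneal macrophages and dendritic cells, 4 were called higher in the aorta, none lower and 7 not: Ccr2, Cd209a, and, named after their values were seen, Cd226 and Flt3. The summed level of that list was 1433, 1337, 1151 and 1814 CPM in the aorta and 342, 349, 276 and 773 CPM in the peritoneum. Zbtb46, Clec9a and Xcr1 of that list were not called or not tested. Of its 11 tested genes, 10 had a positive log2 fold change, with a median of 3.56. The part of dendritic cells in the class II levels was not tested. Of 9 monocyte genes tested, 2 were higher and 2 lower, with a median log2 fold change of 0.50, and the summed level of that list was 4538, 3432, 4515 and 3667 CPM in the aorta and 1097, 870.0, 816 and 449.6 CPM in the peritoneum. The 2 higher genes were F13a1, which the LYVE1 list also holds, and Nr4a1, which the immediate-early list below also holds. F13a1 alone made up the larger part of the monocyte sum in every library, so that sum is not a measure of monocytes. Ly6c2, the marker of fresh inflammatory monocytes, was at or under 0.238 CPM in all 8 libraries.

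Of 9 CC chemokine ligands tested, 5 were called higher in the aorta and none lower, with a median log2 fold change of 6.24 (3.83% of all tested genes were called higher). Ccl8, a monocyte attractant (chr11:82115185-82116799), had no read in any peritoneal library and 95.3, 116, 134 and 5.95 CPM in the aorta, at least 1146-fold higher (adjusted p = 0.0067). Ccl2, the chief ligand of CCR2, was at 135, 155, 85.7 and 359 against 4.31, 1.78, 2.99 and 0.58 CPM (6.24 ± 0.80, adjusted p = 0.00214). Ccl7 and Ccl12, which also bind CCR2, were at 75.8, 51.7, 3.74 and 279 and 54.7, 102, 10.02 and 146 CPM in the aorta and at most 1.41 and 0.594 CPM in the peritoneum (6.69 ± 1.30, adjusted p = 0.00867 and 8.14 ± 1.41, adjusted p = 0.00616). Each of these 4 ligands was above the peritoneum in every aortic library. Ccl4 overlapped in aortic library 3 (42.1, 94.3, 1.36 and 217 against 2.66, 0.356, 0 and 0.912 CPM, 6.47 ± 1.75, adjusted p = 0.0455), and the call of Ccl4 was lost when any 1 of aortic libraries 1, 2 or 4 and peritoneal libraries 1, 2, 3 or 4 was left out (adjusted p 0.0587 to 0.134). Ccl6 and Ccl9 were not called (0.01 ± 0.22, adjusted p = 0.995 and 0.35 ± 0.39, adjusted p = 0.795).

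CXC chemokines were called in both directions. Cxcl13, the B cell attractant of the body cavities, was at 0.457, 13.9, 0 and 0.212 CPM in the aorta and 908, 1274, 948 and 1224 CPM in the peritoneum (-8.20 ± 1.54, adjusted p = 0.00772). Cxcl16, a membrane-bound chemokine and scavenger receptor, was at 93.2, 129.8, 339 and 324 against 26.3, 35, 34.1 and 33.3 CPM (2.78 ± 0.47, adjusted p = 0.0058), and Cxcl2, which draws neutrophils, at 317, 303, 161 and 531 against 120.4, 93.7, 49.2 and 34.2 CPM (2.14 ± 0.49, adjusted p = 0.02). Cxcl2 lost its call without peritoneal library 3 (1.97, adjusted p = 0.0657). Of 8 tested, 2 were higher and 2 lower. Among 10 chemokine receptors tested 3 were higher and 3 lower. Beside Ccr2 and Cx3cr1, Cxcr4 was higher in the aorta (59.2, 141, 124 and 192 against 3.39, 2.26, 8.77 and 3.98 CPM, 4.81 ± 0.65, adjusted p = 0.00283). Ccr1 was lower (139, 165, 54 and 130.3 against 498, 539.6, 456 and 545 CPM, -2.06 ± 0.32, adjusted p = 0.00549), as was Cmklr1, the receptor for chemerin (-1.88 ± 0.33, adjusted p = 0.0065). Ackr3, a decoy receptor, had no aortic read and 34.2, 27.2, 51.1 and 82.4 CPM in the peritoneum, at least 606-fold more (adjusted p = 0.00569).

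Genes that cells switch on within minutes of stimulation were higher in the aorta. Of 23 immediate-early genes tested, 14 were called higher and 1 lower, with a median log2 fold change of 2.24 (3.83% of all tested genes were called higher). With limma-voom and 1 weight per group, 10 of the 23 were called. Fos, a subunit of the AP-1 factor, was at 916, 823, 934 and 985 CPM in the aorta and 188, 190.4, 65.2 and 85.5 CPM in the peritoneum (2.79 ± 0.37, adjusted p = 0.00236). In that limma-voom fit Fos was not called (2.96, adjusted p = 0.0966). Egr1, a zinc finger factor, was at 484, 519, 894 and 1022 against 22.6, 27.4, 11.6 and 29.2 CPM (5.01 ± 0.41, adjusted p = 0.000212). Jun and Nr4a1 were called with 3.47 ± 0.53, adjusted p = 0.00535 and 3.75 ± 0.46, adjusted p = 0.00159. Aortic library 4 was the highest aortic library for 16 of these 23 genes, while for Fos the 4 aortic libraries ranged from 823 to 985 CPM. Klf2, a factor of quiescent cells, was the lower one, at 257, 260.2, 268 and 196 against 944, 972, 913 and 1087 CPM (-2.00 ± 0.16, adjusted p = 0.000145).

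Heat shock chaperones, which refold damaged protein, were higher for 5 of 13 tested and lower for none, with a median of 1.42 (3.83% of all tested genes were called higher). Hspa1a was at 303, 403, 310.2 and 1899.7 CPM in the aorta and 7.98, 8.08, 6.4 and 3.81 CPM in the peritoneum (6.79 ± 0.79, adjusted p = 0.00132). Hspa1b was at 363, 633, 676 and 3000.2 against 7.7, 8.31, 7.74 and 4.06 CPM (7.39 ± 0.81, adjusted p = 0.000914). Aortic library 4 was several times above the other aortic libraries for both genes, and the lowest aortic library was still above every peritoneal one. Hsp90aa1 and Dnajb1 were also called (2.12 ± 0.49, adjusted p = 0.0219 and 2.30 ± 0.53, adjusted p = 0.0197), and so was the constitutive Hspa8, with a smaller difference (1.00 ± 0.21, adjusted p = 0.014). The call of Hsp90aa1 was lost when any 1 of peritoneal libraries 1, 2, 3 or 4 was left out (adjusted p 0.0553 to 0.0695), that of Dnajb1 was lost when any 1 of peritoneal libraries 2, 3 or 4 was left out (adjusted p 0.0573 to 0.0697), and that of Hspa8 was lost when any 1 of peritoneal libraries 1 or 4 was left out (adjusted p 0.0507 to 0.0532). Hspa8 was also not called without aortic libraries 3 and 4 (0.70, adjusted p = 0.0585).

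The heat shock factor binds repeats of GAA and its complement. The windows of the chaperone pair with the largest log2 fold changes are printed to show how alike they are, with 2-unit elements (GAANNTTC or TTCNNGAA, which are each their own complement on the other strand) in capitals, Hspa1a from chr17:34972107-34972406, minus strand, and Hspa1b from chr17:34959189-34959488, minus strand.
Hspa1a: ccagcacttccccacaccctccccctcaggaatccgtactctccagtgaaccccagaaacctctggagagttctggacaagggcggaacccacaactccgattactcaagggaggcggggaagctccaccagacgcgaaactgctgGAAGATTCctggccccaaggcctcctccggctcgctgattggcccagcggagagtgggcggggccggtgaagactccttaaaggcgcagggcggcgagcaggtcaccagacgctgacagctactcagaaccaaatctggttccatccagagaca
Hspa1b: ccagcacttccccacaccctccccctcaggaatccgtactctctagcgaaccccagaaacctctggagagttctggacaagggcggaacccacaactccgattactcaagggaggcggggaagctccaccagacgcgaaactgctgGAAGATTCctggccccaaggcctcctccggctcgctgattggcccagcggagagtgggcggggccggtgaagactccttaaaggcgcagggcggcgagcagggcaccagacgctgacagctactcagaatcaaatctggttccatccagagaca
The windows were identical at 296 of 300 positions, and the transcripts are near copies, so reads of the pair may not be separable. In each the element begins 104 bases before the start. Of 10 tested chaperones with a window, 7 held such an element, against 17% of all genes with a window (15.1% of all windows), and 2 of the 7 were called. A 3-unit element (GAA, TTC and GAA, or TTC, GAA and TTC, with any 2 bases between units) stood in 3 of the 10, none of them called, and in 0.662% of all genes with a window (0.603% of all windows).

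Cytokine and NF-kB genes were called higher for 6 of 19 tested and lower for none, with a median of 1.62 (3.83% of all tested genes were called higher). Tnf was at 71.9, 95.2, 47 and 339 CPM in the aorta and 1.93, 2.85, 1.75 and 0.58 CPM in the peritoneum (6.28 ± 0.90, adjusted p = 0.00392). Il1b was at 19.5, 75.2, 45.8 and 292 against 0.458, 0.356, 0.413 and 0 CPM (8.42 ± 1.37, adjusted p = 0.00568), and Cd83, a marker of activated antigen-presenting cells, at 115, 266, 89.5 and 716 against 1.1, 1.54, 1.65 and 0.58 CPM (7.92 ± 0.88, adjusted p = 0.00103). Aortic library 4 was the highest aortic library for 15 of the 19. The NF-kB regulators Nfkbiz, Tnfaip3 and Nfkbia were called with 2.59 ± 0.44, adjusted p = 0.00606, 3.37 ± 0.80, adjusted p = 0.0233 and 1.62 ± 0.44, adjusted p = 0.044. The call of Tnfaip3 was lost when any 1 of peritoneal libraries 1, 2, 3 or 4 was left out (adjusted p 0.0605 to 0.0793). That of Nfkbia was lost when any 1 of aortic libraries 3 or 4 and peritoneal libraries 1, 2, 3 or 4 was left out (adjusted p 0.0557 to 0.129), and Nfkbia was not called without aortic libraries 3 and 4 (0.61, adjusted p = 0.0554). Tnfaip3 and Nfkbia both restrain NF-kB. The windows of Nfkbia (chr12:55492598-55492897, minus strand) and Cxcl2 (chr5:90903649-90903948, plus strand) are shown as called genes of this kind that hold the kappaB letters (GGGA and TTCC with any 2 bases between, on either strand), in capitals.
Nfkbia: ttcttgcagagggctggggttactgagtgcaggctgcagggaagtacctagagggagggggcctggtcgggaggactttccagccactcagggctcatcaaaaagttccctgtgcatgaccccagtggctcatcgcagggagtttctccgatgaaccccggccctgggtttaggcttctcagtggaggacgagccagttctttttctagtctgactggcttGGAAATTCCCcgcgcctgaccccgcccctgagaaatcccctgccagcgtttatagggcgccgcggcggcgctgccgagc
Cxcl2: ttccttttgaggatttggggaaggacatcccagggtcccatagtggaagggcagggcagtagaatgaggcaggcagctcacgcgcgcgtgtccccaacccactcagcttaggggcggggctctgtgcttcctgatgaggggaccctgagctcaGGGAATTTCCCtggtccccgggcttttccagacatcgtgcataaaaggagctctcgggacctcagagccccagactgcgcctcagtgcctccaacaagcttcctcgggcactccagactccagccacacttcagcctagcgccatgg
Those letters begin 29 bases before the start of Nfkbia, and overlapping matches on the 2 strands begin 97 and 96 bases before that of Cxcl2. Among 14 tested members of the cytokine list with a window 3 held them, 1 of them called, against 1.63% of all genes with a window (1.47% of all windows).

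In the aorta the summed CPM of the immediate-early list was 6878, 7075, 8515 and 13647 in libraries 1 to 4, against 3859.7, 3481, 2566 and 3046 in the peritoneum. For the chaperones it was 5667, 6549, 7274 and 13625 against 4551, 5727, 5052 and 5374, and for the cytokine list 1467, 1948, 1748 and 6048 against 741, 747, 735 and 713. The chaperone sums overlapped between the tissues and the other sums did not. Collagenase digestion was applied to the aorta only, and its part in these levels cannot be told apart from that of the tissue.

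Of 14 coagulation and fibrinolysis genes tested, 7 were lower and 1 higher in the aorta, with a median of -1.46. Fn1, Thbs1, Serpinb2 and F10, named below, also belong to the GATA6 list, so these counts in part repeat that list. Fn1, fibronectin, was at 5089, 2966, 3297 and 3748 CPM in the aorta and 63412, 65232, 54647 and 64803 CPM in the peritoneum (-4.04 ± 0.18, adjusted p = 1.64e-05). Thbs1, thrombospondin-1, was at 115, 30.4, 58.7 and 27.7 against 6863, 6881, 7377 and 7304 CPM (-6.94 ± 0.53, adjusted p = 0.000145). Serpinb2, the plasminogen activator inhibitor 2, was at 0, 0.635, 0 and 2.97 against 815, 1056, 969 and 1392 CPM (-10.13 ± 1.22, adjusted p = 0.0015). Each of these was far below the peritoneum in every aortic library. F7, which starts the extrinsic pathway, had no aortic read and 56.1, 42.8, 46.7 and 38.1 CPM in the peritoneum, at least 546-fold more (adjusted p = 0.00555). F10, its substrate, was at 20.9, 4.02, 0.679 and 0 against 277, 309.7, 343 and 329.6 CPM (-5.60 ± 1.38, adjusted p = 0.0287), and the call of F10 was lost when any 1 of aortic libraries 2 or 3 and peritoneal libraries 1, 2, 3 or 4 was left out (adjusted p 0.0511 to 0.0825). F13a1, described above, was the higher one, while Plau, urokinase, was not called (2.63 ± 1.03, adjusted p = 0.184). Plau was called without aortic library 3 (3.01, adjusted p = 0.0158) and without aortic libraries 3 and 4 (1.92, adjusted p = 0.00461).

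Of 17 complement genes tested, 1 was higher and 4 lower (3.83% and 7.63% of all tested genes were). The higher one was the integrin gene Itgax, described above (7.25), which the TREM2 and integrin lists below also hold, so it is not a secreted component. C4b was at 436, 418, 1117 and 851 against 7770.1, 7654, 7104 and 6163 CPM (-3.35 ± 0.34, adjusted p = 0.000575) and Cfp, properdin, at 399.8, 287, 377 and 163 against 1595, 1679, 1412 and 1343 CPM (-2.30 ± 0.27, adjusted p = 0.00144), both without overlap. The C1q chains differed by less than 1 on the log2 scale. C1qa and C1qb were not called (-0.72 ± 0.26, adjusted p = 0.136 and -0.33 ± 0.17, adjusted p = 0.36), C1qa was without peritoneal library 4 (-0.93, adjusted p = 0.0191), and the call of C1qc (-0.79 ± 0.21, adjusted p = 0.0372) did not hold without aortic libraries 3 and 4 (-0.80, adjusted p = 0.0857). The call of C1qc was lost when any 1 of aortic libraries 1, 2, 3 or 4 and peritoneal libraries 1, 2 or 3 was left out (adjusted p 0.0541 to 0.115). C3 was below the peritoneum in every aortic library, at 78.1, 10.2, 0 and 97.9 against 457, 542, 503 and 552 CPM, yet was not called (-3.46 ± 1.25, adjusted p = 0.144). It was called without aortic library 3 (-3.07, adjusted p = 0.0243) and without aortic libraries 3 and 4 (-3.55, adjusted p = 0.022). Vsig4, a receptor for complement fragments that is shared with the GATA6 list, was at 27.6, 44.6, 29.5 and 0 against 509, 484, 506 and 446 CPM (-4.26 ± 1.16, adjusted p = 0.0475), with no read in aortic library 4. The call of Vsig4 was lost when any 1 of aortic libraries 1, 2 or 3 and peritoneal libraries 1, 2, 3 or 4 was left out (adjusted p 0.0779 to 0.103).

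Uptake receptors were called in both directions. Among 15 scavenger receptors tested, 5 were higher and 2 lower, and among 19 efferocytosis genes, which serve the removal of dying cells, 4 were higher and 4 lower. The scavenger receptor with the highest log2 fold change was Mrc1, described above (5.50). That list had a median of -0.73, and its summed level was 9553 to 12004 CPM in the aorta and 7860 to 9282 CPM in the peritoneum. Msr1, the scavenger receptor A that takes up modified lipoprotein, was at 298, 259.9, 60.3 and 218 CPM in the aorta against 1411, 1532, 1365 and 1639 CPM (-2.83 ± 0.43, adjusted p = 0.00503). Lrp1, a receptor for remnant lipoprotein, was at 1479, 1382, 1631 and 1015 against 3824, 3557, 3259.7 and 3311 CPM (-1.34 ± 0.16, adjusted p = 0.00133). Cd36, another receptor for oxidised lipoprotein, was lower in every aortic library, at 855, 744, 702 and 200.03 against 1089, 1222, 1246 and 899 CPM, and was not called (-0.83 ± 0.38, adjusted p = 0.278), though it was without aortic library 4 (-0.55, adjusted p = 0.0497). Marco and Cd5l lay below the peritoneum in every aortic library without a call (-4.84 ± 1.55, adjusted p = 0.0914 and -5.73 ± 1.59, adjusted p = 0.051), and both had 1 or more aortic libraries at 0. Both were called without aortic library 4 (-4.42, adjusted p = 0.0477 for Marco and -7.45, adjusted p = 0.0185 for Cd5l), Cd5l also without aortic library 3 (-5.35, adjusted p = 0.0443), and both without those 2 libraries (-3.87, adjusted p = 0.00284 and -6.93, adjusted p = 0.0137).

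The bridging proteins of efferocytosis went in opposite directions. Gas6 was the aortic one, and Pros1, protein S, the peritoneal one, at 193, 167, 286 and 64.9 against 779, 794, 778 and 696 CPM (-2.10 ± 0.38, adjusted p = 0.00717). Havcr2, the phosphatidylserine receptor TIM3, was at 53.6, 121, 60.4 and 61.2 CPM in the aorta and at most 0.206 CPM in the peritoneum (8.85 ± 0.88, adjusted p = 0.000454), opposite to its relative Timd4. Itgb5, a partner of the integrin that binds the bridge MFGE8, was at 131, 175, 106 and 83.2 against 1.1, 1.19, 0.413 and 0.332 CPM (7.34 ± 0.71, adjusted p = 0.000446), and Mfge8 itself was at 2.1, 0.106, 0 and 0 against 49.1, 45.8, 42.4 and 49.6 CPM (-6.33 ± 1.74, adjusted p = 0.0477). The call of Mfge8 was lost when any 1 of aortic library 2 and peritoneal libraries 1, 2, 3 or 4 was left out (adjusted p 0.0848 to 0.123). Axl, the receptor that pairs with GAS6, was not called (1.32 ± 0.48, adjusted p = 0.144), and it was called without aortic library 3 (1.61, adjusted p = 0.00834) and without aortic libraries 3 and 4 (1.29, adjusted p = 0.00711).

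Abca1, the pump that loads cholesterol onto apolipoprotein A1, was at 1102, 1052, 1324 and 1122 CPM in the aorta and 628, 497, 437 and 347 CPM in the peritoneum (1.27 ± 0.20, adjusted p = 0.00537). It was higher in every aortic library, and was not called with limma-voom and 1 weight per group (1.29, adjusted p = 0.263). Abcg1, which loads mature HDL, was not called (-0.44 ± 0.51, adjusted p = 0.809). Of 13 liver X receptor target and efflux genes 2 were called higher and none lower, and of 22 SREBP2 targets, the genes of cholesterol synthesis, 1 was lower and none higher, beside the 3.83% and 7.63% of all genes called in those directions. Apoe reads were 33.1, 2.96, 2.38 and 38 CPM in the aorta and 6.88, 5.94, 8.25 and 7.96 CPM in the peritoneum (1.40 ± 1.16, adjusted p = 0.664), and such gene-wide counts cannot show whether the allele is disrupted.

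Genes of the TREM2 lipid-loaded macrophage were called in both directions at baseline. Of 16 tested, 3 were higher and 2 lower, with a median of -0.43. Trem2 was at 6.85, 37.2, 0 and 5.52 against 24.9, 20.9, 15.7 and 8.29 CPM (-0.49 ± 1.47, adjusted p = 0.948) and Lpl, lipoprotein lipase, at 1171, 730.4, 645 and 1159.8 against 1192, 1458, 1138 and 890.5 CPM (-0.34 ± 0.24, adjusted p = 0.586). Gpnmb had no aortic read and 3.12, 1.66, 2.17 and 2.07 CPM in the peritoneum, and Fabp4 was at 0, 13.7, 9.51 and 0 against 191, 191, 206 and 353 CPM without a call (-5.35 ± 1.58, adjusted p = 0.0659). Fabp4 was called without aortic library 4 (-4.95, adjusted p = 0.039) and without aortic libraries 3 and 4 (-5.15, adjusted p = 0.0413). Of 24 lysosomal hydrolases, 1 was higher and 5 lower (3.83% and 7.63% of all tested genes were). Ctsd, cathepsin D, was at 246, 407, 372 and 329 against 2147, 1878, 1681 and 1649 CPM (-2.44 ± 0.19, adjusted p = 0.000145), and Ctsc, cathepsin C, was the higher one, at 1332, 1312, 1641 and 822 against 431, 521, 452 and 455 CPM (1.46 ± 0.21, adjusted p = 0.00392).

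Among leukocyte integrins 2 of 13 were higher and 4 lower. Itgb2 and Itgb1, the common beta chains, were lower in every aortic library (-2.63 ± 0.15, adjusted p = 3.02e-05 and -1.55 ± 0.20, adjusted p = 0.00214), as their partners Itgam and Itga6 were. Itgax and Itgb5 were the higher ones. Of 15 Toll-like receptor genes, 2 were higher, beside 3.83% of all tested genes. They were Tlr5 and Tlr9 (4.73 ± 1.13, adjusted p = 0.0252 and 4.34 ± 1.17, adjusted p = 0.0442), and Tlr4, which senses endotoxin, and Tlr7 were not called (0.37 ± 0.50, adjusted p = 0.845 and 0.04 ± 0.34, adjusted p = 0.984). The call of Tlr5 was lost when any 1 of aortic library 2 and peritoneal libraries 1, 2, 3 or 4 was left out (adjusted p 0.0556 to 0.0929), and that of Tlr9 was lost when any 1 of aortic libraries 1, 2 or 3 and peritoneal libraries 1, 2, 3 or 4 was left out (adjusted p 0.0503 to 0.151).

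Genes linked to alternative activation went in both directions. Of 11 tested, 6 were higher and 2 lower, with a median of 3.33. Mgl2, a galactose-type lectin, was at 772, 534, 766 and 671 against 6.42, 9.03, 4.74 and 3.23 CPM (6.87 ± 0.39, adjusted p = 3.02e-05). Arg1, arginase 1, was at 0.274, 0, 0 and 0 against 184, 127, 174 and 274 CPM (-11.00 ± 1.02, adjusted p = 0.000391), against the direction of the list's median. Retnla was at 2389, 1537, 2046 and 286 against 239.6, 218, 143 and 22.2 CPM (3.33 ± 0.81, adjusted p = 0.0273), lowest in library 4 of each population, and the call of Retnla was lost when any 1 of aortic libraries 1, 2 or 3 and peritoneal libraries 2 or 3 was left out (adjusted p 0.0542 to 0.0785). Retnla was also not called with limma-voom and 1 weight per group (3.47, adjusted p = 0.306). Among 11 metalloproteinases and inhibitors 2 were higher and 2 lower. Mmp9, a gelatinase, was at 272, 81.1, 402 and 313 against 23, 24.7, 9.8 and 9.87 CPM (3.99 ± 0.59, adjusted p = 0.00433), Adam19 at 256, 206, 189 and 156 against 2.66, 1.54, 2.79 and 0.249 CPM (6.79 ± 0.75, adjusted p = 0.000953), and Timp2, an inhibitor, at 561, 291, 852 and 394 against 1550.3, 1625, 1459 and 1239.7 CPM (-1.49 ± 0.31, adjusted p = 0.0119).

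Of 28 macrophage transcription factors tested, 4 were higher and 1 lower, Gata6 and Maf among them, beside the 11.5% of all genes called. Runx1, a factor of blood cell development, was at 457, 326, 206 and 699 against 79.4, 59.1, 62.7 and 58 CPM (2.70 ± 0.38, adjusted p = 0.00322). Pparg, a lipid-sensing receptor, was at 13.2, 28.7, 67.7 and 1.91 against 0.642, 0.119, 0.619 and 0.912 CPM (5.57 ± 1.44, adjusted p = 0.0368), and the call of Pparg was lost when any 1 of peritoneal libraries 1, 2, 3 or 4 was left out (adjusted p 0.108 to 0.139). Tcf4, a helix-loop-helix factor, was called with a smaller difference (1.04 ± 0.27, adjusted p = 0.0364), and that call of Tcf4 was lost when any 1 of aortic libraries 1 or 3 and peritoneal libraries 1, 2, 3 or 4 was left out (adjusted p 0.0659 to 0.122). Zeb2, which holds macrophages to their tissue identity, was not called, at 1656, 1329, 1442 and 1527 against 1315, 1349, 1159.7 and 1408 CPM (0.19 ± 0.12, adjusted p = 0.54). Nr1h3, the liver X receptor alpha, was read in 1 aortic library only, at 0, 0, 0 and 91.1 CPM against 2.75, 2.02, 2.68 and 2.65 CPM (3.17 ± 2.50, adjusted p = 0.636). Its sign turned without aortic library 4 (log2 fold change -7.61, adjusted p = 0.00268).

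No metabolic, ribosomal or cell cycle gene tested was called higher in the aorta. None of 23 oxidative phosphorylation genes was called by edgeR (0 at an unadjusted p under 0.05, 1 by DESeq2 and 1 by limma-voom), and none of 20 cell cycle genes (2 at an unadjusted p under 0.05, 0 by DESeq2 and by limma-voom). Mki67 was at 259, 583, 163 and 364 against 169, 69.5, 186 and 249 CPM (1.02 ± 0.47, adjusted p = 0.275). Of 20 glycolysis and hypoxia genes, 4 were lower (7.63% of all genes were), among them Gapdh (274, 207, 195 and 185 against 581, 602, 593 and 663 CPM, -1.50 ± 0.18, adjusted p = 0.00123) and Egln3, an oxygen sensor with no aortic read and 27.6, 33.6, 26.9 and 54.9 CPM in the peritoneum (at least 437-fold more, adjusted p = 0.0063). Of 29 ribosomal protein genes, 3 were lower, with a median of -0.22. Of 22 interferon-stimulated genes none was called higher and 1 lower, Ifitm3 (297, 283, 289 and 277 against 689.7, 680.4, 781 and 501 CPM, -1.21 ± 0.17, adjusted p = 0.00322). Most interferon-stimulated genes lay the other way without a call, 16 with a positive and 6 with a negative log2 fold change, and a median of 1.05. The ribosomal and interferon counts are near the 7.63% of all tested genes called lower. Ribosomal protein genes have processed copies that the counting could split.

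**Figure D3:**
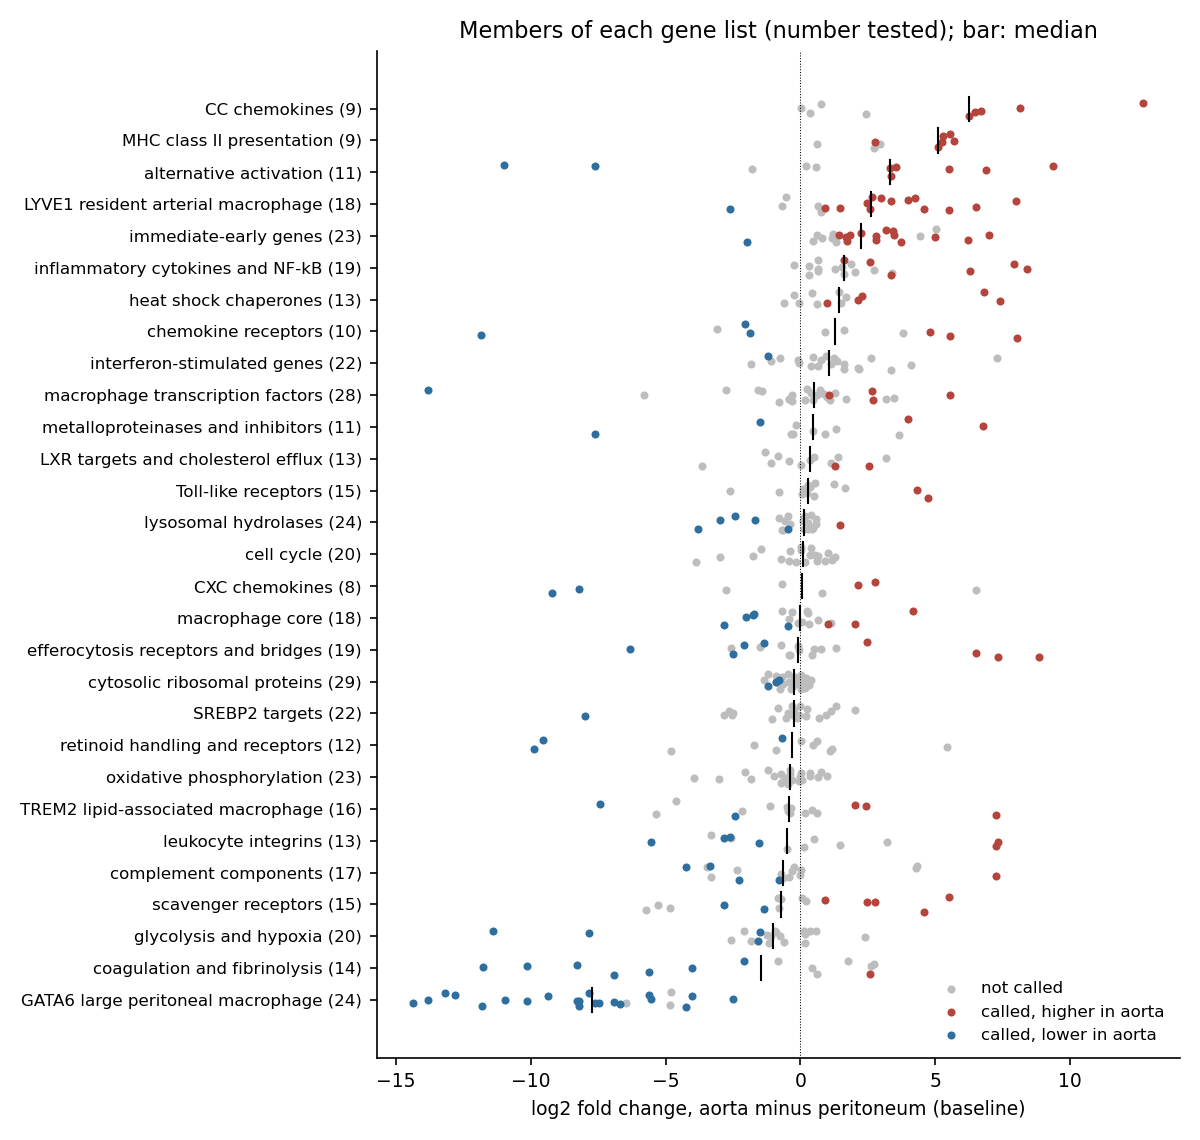
Each point is a tested gene of a list, at its log2 fold change of aorta over peritoneum at baseline, with a bar at the list's median and the number tested in brackets, and jitter only in the vertical direction. The GATA6 list lies wholly to the left (median -7.74), the CC chemokine and MHC class II lists lie to the right (medians 6.24 and 5.10), and most other lists straddle 0.

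The genes with the widest differences were taken by rule as the 12 highest and 12 lowest among called genes with no overlap and a mean of 20 CPM or more in the higher population. Slco2b1, an organic anion and steroid sulfate carrier (chr7:99657804-99711340), had no peritoneal read and 435, 339, 360.1 and 236 CPM in the aorta, at least 4720.1-fold more (adjusted p = 0.000115). P3h2, a collagen-modifying hydroxylase, and Pla2g2d, a secreted phospholipase, had no peritoneal read either, at 68, 29.4, 79.5 and 143 and 21.1, 63.1, 80.1 and 81.2 CPM in the aorta (adjusted p = 0.00429 and 0.00538). Slc40a1, the iron exporter ferroportin (chr1:45908070-45926532), was at 129, 98.5, 162 and 197 against 0, 0.119, 0.206 and 0.498 CPM (9.35 ± 0.96, adjusted p = 0.00065). Ms4a7 was at 105, 94.2, 101 and 156 against 0.367, 0.238, 0 and 0.332 CPM (8.83 ± 0.94, adjusted p = 0.000774), and Siglech, a lectin best known from plasmacytoid dendritic cells and microglia, at 60.7, 53.6, 203 and 62.6 against 0.0917, 0, 0.103 and 0 CPM (10.58 ± 1.18, adjusted p = 0.00103). The rule also took Chp2, Cd209d and Cyr61, with aortic means 928, 775 and 1441 times the peritoneal ones. At these peritoneal levels, under 0.5 CPM, a ratio of means rests on a few reads.

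On the peritoneal side the rule took Naip1, an inflammasome sensor of bacterial needle protein (chr13:100407770-100452864), with no aortic read and 276, 268, 297 and 263 CPM (at least 3279-fold, adjusted p = 6.31e-05). Mcemp1, Arhgap29, Lbp, Nt5e, Wnt2, Hspa12a, Ryr2 and Jam2 likewise had no aortic read. Their peritoneal libraries ran from 83.3 to 107 CPM for Jam2 to 226 to 268 CPM for Mcemp1, and the bounds ran from at least 1146-fold to at least 2918-fold. Lbp carries endotoxin to its receptor, Nt5e is the adenosine-producing ectoenzyme CD73, and Wnt2 is a secreted growth factor. Clec4e, the receptor Mincle for mycobacterial lipid, was at 0 in all 4 aortic libraries and at 142, 149, 159 and 176 CPM in the peritoneum.

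Markers of other cells were looked at for both tissues. Of 6 lists for stromal and vessel cells, red cells and platelets, 7 of 62 genes were high enough to test. Col1a2, a fibroblast collagen, was at 25.1, 29.6, 52.8 and 1.06 CPM in the aorta and at most 0.206 CPM in the peritoneum (8.74 ± 2.01, adjusted p = 0.0203), and the call of Col1a2 was lost when any 1 of peritoneal libraries 1, 2, 3 or 4 was left out (adjusted p 0.0539 to 0.0803). Dcn, another fibroblast marker, was at 14.3, 88.4, 0 and 3.72 against 0.0917, 0, 0.103 and 0.0829 CPM. The summed fibroblast list was 192, 409.8, 323 and 50.008 CPM in aortic libraries 1 to 4 and 27.9, 34.6, 34.5 and 65.9 CPM in the peritoneal ones. The smooth muscle list summed to 53.2, 84.6, 44.1 and 1.38 CPM against 2.66, 2.02, 2.79 and 2.74 CPM, with 1 gene tested and called lower in the aorta. The endothelial list summed to 40.9, 77.3, 5.77 and 5.73 against 4.86, 6.29, 4.95 and 4.48 CPM, the mesothelial list to 0, 7.83, 30.2 and 0.956 against 0.642, 0.238, 0.206 and 0.166 CPM, and the adipocyte list to 65.3, 44.8, 96.8 and 18.4 against 62.4, 66.5, 71.8 and 58.5 CPM. The platelet and red cell list reached 180.1, 3.49, 0 and 0 CPM in the aorta, nearly all in library 1, against 1.28, 0.95, 0.309 and 0.166 CPM in the peritoneum. Low vessel and stromal signal was thus uneven among the aortic libraries. Among defining genes, Acta2 of smooth muscle was at or under 1.38 CPM and Cdh5 of endothelium at or under 1.07 CPM in all 8 libraries. Of 3 fibroblast genes tested 2 were higher in the aorta, and the part of these cells' RNA in the aortic levels was not tested.

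Lymphocyte markers gave no call. None of 7 B cell and 2 T or NK cell genes tested was called by edgeR (0 and 0 at an unadjusted p under 0.05, 0 by DESeq2 and by limma-voom). Cd79a of B cells was at 19.2, 0, 0 and 2.76 CPM in the aorta and 5.32, 6.06, 6.29 and 0.58 CPM in the peritoneum (0.27 ± 1.89, adjusted p = 0.981). The summed B cell list was 197, 210.5, 289 and 165 against 181, 189.6, 189 and 116 CPM, and the T and NK list 54.8, 239, 35.3 and 0.849 against 10.9, 9.5, 9.49 and 1.66 CPM, highest in aortic library 2. The mast cell, basophil and eosinophil list summed to 0.0914, 124, 0 and 13 against 95.6, 106, 73.1 and 68.8 CPM, with 1 of 5 tested genes lower in the aorta. The neutrophil list summed to 73.6, 66.5, 36.3 and 108 CPM in the aorta and 309.8, 325, 269 and 293 CPM in the peritoneum without overlap, and its 1 tested gene was called lower in the aorta (log2 fold change -2.18). Its marker S100a8 was at 0 in the aorta and at 1.47, 3.09, 2.06 and 0.912 CPM in the peritoneum.

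The same 2 tissues were compared again in the libraries of the diet stages, which share no sample with the baseline. At the early stage 1034 of 9251 genes were called (11.2%), and at the advanced stage 2565 of 9285 (27.6%). Of the 416 genes called higher at baseline, 407 were tested at the early stage, where 381 had the same sign and 238 were called in the same direction. At the advanced stage 398 were tested, 388 had the same sign and 348 were called again. Of all tested genes, 50.8% early and 48.2% at the advanced stage had that sign, and 6.54% and 16.2% were called higher. Of the 828 lower ones, 386 were tested early (329 same sign, 170 called) and 422 at the advanced stage (367 same sign, 272 called). Of all tested genes, 49.2% and 51.8% had that sign, and 4.64% and 11.4% were called lower.

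The lower calls recurred mainly where the peritoneal level was not low. Of the 426 genes with no aortic read and a peritoneal mean under 20 CPM, 103 were tested at the advanced stage, 72 had the same sign and 28 were called again. Of the 49 with no aortic read and a peritoneal mean of 20 CPM or more, all 49 were tested there, 47 had the same sign and 42 were called. All 4 aortic libraries were again at 0 for 125 of the 426 and 16 of the 49 early, and for 27 and 5 at the advanced stage. Clec4e is an example of a call that did not recur. It was at 104, 129, 50.8 and 172 CPM in aortic and 156, 92.5, 185 and 171 CPM in peritoneal libraries at the early stage (-0.41 ± 0.36, adjusted p = 0.591), and at 105, 154, 207 and 167 and 137, 166, 150.2 and 162 CPM at the advanced stage (0.05 ± 0.19, adjusted p = 0.886).

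**Figure D4:**
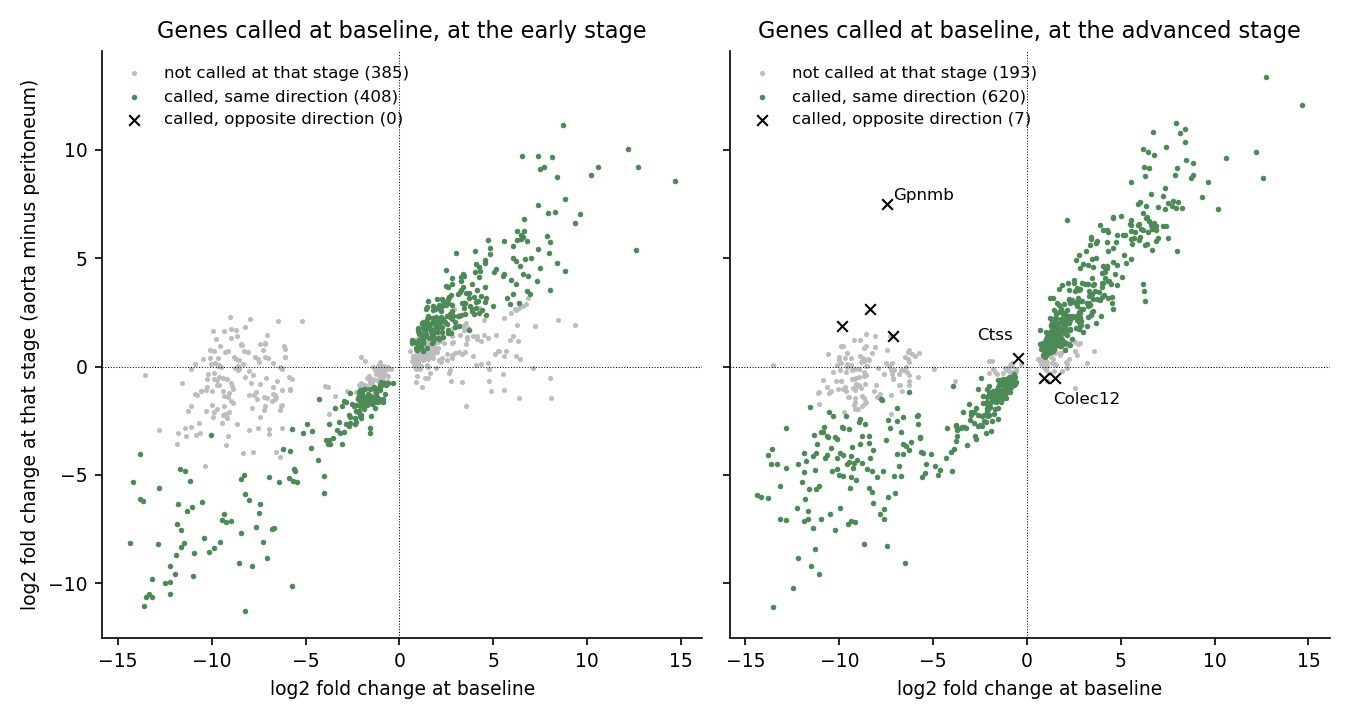
Each point is a gene called at baseline and tested at the early (left) or advanced (right) stage, at its log2 fold change at baseline (horizontal) and at that stage (vertical), aorta minus peritoneum. Most points lie in the lower left and upper right, 408 and 620 are called again in the same direction, 0 and 7 in the opposite one, and a cloud of genes far below 0 at baseline lies around 0 at both stages.

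The GATA6 and LYVE1 differences held at both stages. Of 24 GATA6 genes, 23 were called lower at the early and 24 at the advanced stage, where 4.64% and 11.4% of all tested genes were. Gata6 was at 0, 0, 0 and 9.3 CPM in aortic libraries against 128, 69.5, 225 and 212 CPM early (-6.10 ± 1.03, adjusted p = 0.00152), and at 0, 4.23, 3.73 and 1.2 against 168, 173, 166 and 182 CPM at the advanced stage (-6.06 ± 0.38, adjusted p = 5.06e-07). Of 19 LYVE1 genes tested at each, 14 were higher at both stages, and 2 and 4 lower. Among immediate-early genes 15 of 24 and 23 of 24 were called higher, and among chaperones 9 of 13 at both stages, beside the 6.54% and 16.2% of all tested genes.

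The class II difference was called at baseline and at the advanced stage and not at the early stage, where none of 8 genes tested was called by edgeR (0 at an unadjusted p under 0.05, 0 by limma-voom), against 7 of 8 at the advanced stage. H2-Aa at the early stage was at 2596, 1794, 1853 and 1608 CPM in the aorta and 1240.5, 3275, 119 and 80.5 CPM in the peritoneum (0.73 ± 0.99, adjusted p = 0.761), so early peritoneal library 2 was above the aortic range, library 1 below its lowest value, and libraries 3 and 4 far below it. Ccr2 put libraries 1 and 2 above the aortic range and 3 and 4 below it, at 239, 159, 279 and 393 against 888, 1266, 52.6 and 26.6 CPM (-1.06 ± 1.04, adjusted p = 0.648). In early peritoneal libraries 1 to 4 the GATA6 list summed to 49510.5, 42555, 117448 and 97268 CPM, and the small peritoneal macrophage and dendritic cell list to 1465, 2469, 493 and 410.5 CPM. Libraries 1 and 2 were thus lower in the first and higher in the second, and the share of small peritoneal macrophages in them was not tested. An analysis added after the values were seen left these 2 libraries out. In it, 5 of 8 class II genes were called higher in the aorta at the early stage, beside 445 of all 10075 genes tested. H2-Aa was at 4.29 ± 0.31 and Ccr2 at 2.75 ± 0.46. The libraries left out were those with the highest peritoneal levels of these genes, so the outcome follows in part from that choice and is no independent test. At the advanced stage H2-Aa was at 4131, 2739, 3089.6 and 2882 against 23.6, 73.6, 53.8 and 38.6 CPM (6.08 ± 0.33, adjusted p = 1.82e-07). Differences between the stages themselves were not tested.

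**Figure D5:**
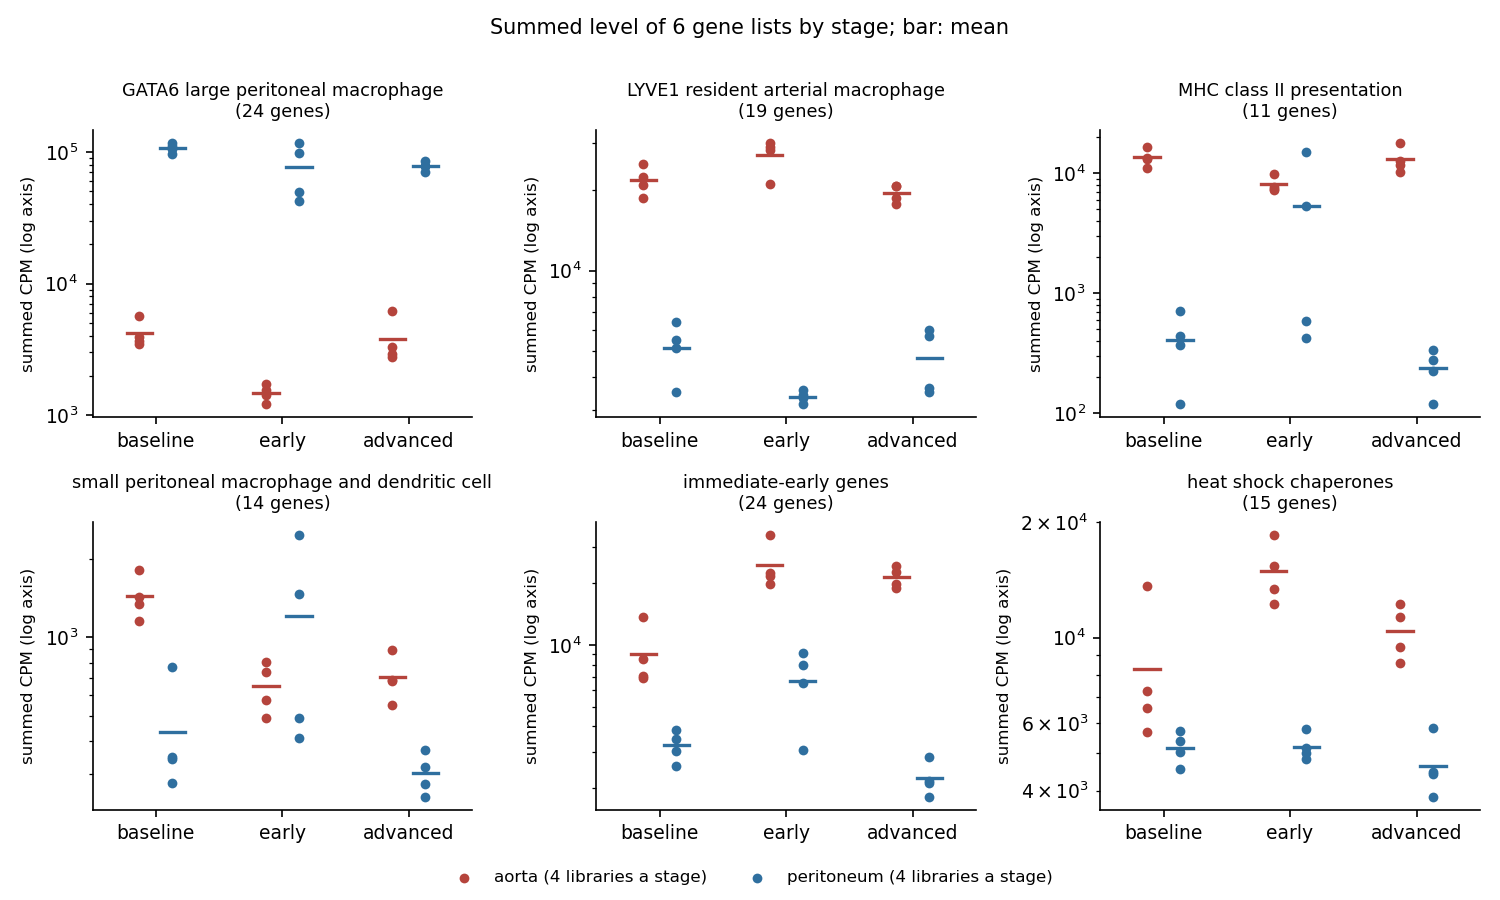
Each point is 1 library, at the summed CPM of a gene list on a log axis, for aortic and peritoneal macrophages at 3 stages, with a bar at the mean of 4 libraries. The GATA6 and LYVE1 lists stay apart at every stage, while at the early stage peritoneal libraries 1 and 2 carry class II sums of 5313 and 14930 CPM beside 585 and 423 CPM in libraries 3 and 4.

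Few baseline calls were called in the opposite direction later, 0 at the early and 7 at the advanced stage, named here because they are few: Colec12 and Rsrp1 among the higher ones, and Smim3, Kif18a, Ctss, Ezh2 and Gpnmb among the lower ones. Gpnmb, a glycoprotein of lipid-loaded macrophages, went from no aortic read at baseline to 12.7, 0, 8.28 and 0.547 CPM at the early stage and 97.5, 268, 423 and 254 CPM at the advanced stage, against 3.85, 0.378, 0.835 and 1.74 and 0.563, 1.2, 2.8 and 1 CPM in the peritoneum (7.50 ± 0.56, adjusted p = 1.72e-06 at the advanced stage, while the early levels were too low to test). Colec12, a scavenger receptor with a collagen-like stalk, was at 231, 261, 266 and 305 against 150.5, 162, 125 and 125 CPM at baseline (0.92 ± 0.20, adjusted p = 0.0161) and at 108, 138, 111 and 98.1 against 151, 157, 179 and 176 CPM at the advanced stage (-0.54 ± 0.15, adjusted p = 0.0174). The baseline call of Colec12 was lost when any 1 of peritoneal libraries 1, 3 or 4 was left out (adjusted p 0.062 to 0.0867).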

How the data were processed

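RNA of macrophages sorted into lysis buffer was purified and made into libraries with a low-input kit, and sequenced as paired ends, per the labels' protocols. The deposited files hold whole-number counts per gene symbol for 24421 genes, not normalized. The submitters' processing notes name STAR, featureCounts and the mm10 genome. Versions, settings and use of strand are not given in the sources used here, so reads of overlapping or antisense genes cannot be separated. Groups come from the labels. The 8 baseline libraries were fitted alone in edgeR 4.0.16 (R 4.3.3) with TMM scaling, its expression filter and robust quasi-likelihood dispersion, with no covariate and Benjamini-Hochberg adjustment over all 10850 genes tested. The biological coefficient of variation was 166.5% within the aorta and 16.36% within the peritoneum, while the fit shares 1 value per gene (109.5%). Each diet stage was fitted the same way on its own 8 libraries. Standard errors are the log2 fold change divided by the root of its F statistic. Where a group had no read, the bound rests on a floor of 3 counts over the group and covers counting error only. Alternatives used DESeq2 1.42.0 and limma 3.58.1, other scalings, filters and depths, larger fits, and libraries left out. The fits were also run on simulated counts drawn from the baseline fit, after the real fits, with the outcome not given here.

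Genes are named by rule: the 12 largest changes in each direction among called genes without overlap and with a mean of 20 CPM or more (predicted genes left out), the defining genes of each list whatever their result, up to 3 further called members of each list not of other cells with the smallest p (some left out for length), and Apoe. The comparison, its members and the gene lists were chosen with earlier results of these data known. Sequences were matched by symbol to RefSeq tables (GRCm38.p6), which held 10310 of the 10850 tested symbols, 8336 of them with a promoter window.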

Additional observations from a re-analysis of the deposited data

Results flagged for a closer look

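Among 320 groups of 4 baseline libraries looked at, the named genes in each tissue where their mean reached 1 CPM, 36 held 1 library whose gap to the nearest other exceeded Dixon's critical value, and chance alone gives about 1 in 20. Aortic library 4 gave 9 of them and peritoneal library 4 gave 11.

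Aortic library 4 stood above the other aortic libraries for Hspa1a (1899.7 CPM), Hspa1b (3000.2), Tnf (339), Nfkbiz (1075), Tnfaip3 (771), Slc2a1 (186) and Nr1h3 (91.1), and below them for Ptprc (511) and Klf2 (196). Aortic library 3 stood above the rest for Siglech (203 CPM), Chp2 (149.9) and Anxa5 (437). Aortic library 2 did so for Havcr2 (121 CPM), Cxcl13 (13.9), Cfb (93.5), Plac8 (30.6) and Dcn (88.4), and aortic library 1 for Rarb (6.95 CPM), Chil3 (22.9) and Cd79a (19.2).

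Peritoneal library 4 stood above the other peritoneal libraries for Nt5e (228 CPM), Fabp4 (353), Chil3 (72.3), Slpi (1206) and Rps6 (376). It stood below them for Adgre1 (1786 CPM), Fcgr1 (20.7), Hspa1b (4.06), Itga6 (3579), Cd79a (0.580) and Pros1 (696). Peritoneal library 3 was set apart by Tlr4 (185 CPM) and Ifit3 (3.61), both high, and by Ccr2 (8.05), low. Peritoneal library 1 was high for Abcg1 (89.2 CPM) and peritoneal library 2 low for Nr1h3 (2.02 CPM).

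For 3 genes every aortic library lay on 1 side of every peritoneal library at baseline and on the other side at a later stage, a change between stages that was not tested. Cd36 had a log2 fold change of 0.69 at the early stage, Colec12 of -0.54 at the advanced stage and Gpnmb of 7.50 at the advanced stage.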

How the results depend on the processing

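At baseline 1244 genes were called, 416 higher and 828 lower in the aorta. The total was 2069 in a fit of 24 libraries, 3067 in one of 36, 1964 without a filter on low counts, 405 with a replicate block and 3789 without aortic libraries 3 and 4. The higher calls were 695 with DESeq2, 1029 and 1442 in the larger fits, 230 against a 2-fold threshold, 248 with limma-voom and 1 weight per group, 214 with the replicate block and 1538 without aortic libraries 3 and 4. The lower calls were 1625 in the fit of 36, 1507 and 1391 with limma-voom and 1 weight per group or per library, 1550 without a filter, 191 with the block and 2251 without aortic libraries 3 and 4. Leaving out 1 library gave 950 to 1991 calls, 256 to 684 higher and 692 to 1483 lower. Other scalings, thinning and leaving out Rn45s moved no count by over 1.5 times. The share of calls that were higher was 33.4%, against 42.4% with DESeq2, 49.7 and 47.0% in the larger fits, 14.1 and 19.9% with limma-voom (1 weight per group and per library), 21.1% without a filter and 52.8% with the block. The median over all genes was -1.58 and -0.88 with those limma-voom fits, -0.51 without a filter and -1.13 with the block, against -0.10. The cause was not tested.

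Nothing in the labels says whether same-numbered libraries are paired. Their deviations from the group means had correlations of -0.0048 to 0.038 over 9651 genes. With a biological coefficient of variation of 166.5% within the aorta, such values cannot decide whether the numbers pair the samples. The block gave 893 calls at the early and 2243 at the advanced stage.

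At the early stage 1034 genes were called, 670 to 1209 with 1 library left out (256 to 555 lower), and 700 without peritoneal libraries 1 and 2, an alternative chosen after seeing the data, of which 445 were higher and 255 lower. At the advanced stage 2565 were called, and 2157 to 4147 with 1 library left out (1359 to 2291 higher and 798 to 1856 lower), the most without aortic library 1. Of 137 named genes called at baseline, 80 kept their call in every alternative, 111 with each library left out in turn, 134 without aortic libraries 3 and 4, and 103 with limma-voom and 1 weight per group. Of 46 not called, 19 were called in some alternative, 13 of them without aortic libraries 3 and 4. Where neither value was called, 74 of 842 pairs of gene and alternative had the other sign. With a call on 1 side, the sign turned for Nr1h3, to -4.72 with limma-voom and 1 weight per library and to -7.71 without aortic libraries 3 and 4 (-7.61 to 3.55 with 1 library left out), and for Plac8 without aortic library 2 (-8.71 to 0.91 with 1 library left out). The 7790 and 7367 genes detected in aortic libraries 3 and 4 at equal depth limit what a missing aortic read can show.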
